A study of Mus musculus with 4 samples.

Results

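The NR4A nuclear receptors (Nr4a1, Nr4a2 and Nr4a3), the early growth response factors (Egr1, Egr2, Egr3 and Egr4) and the NGFI-A binding corepressors of the latter (Nab1 and Nab2) were followed in RNA sequencing of mouse T helper 17 (Th17) cells. The 9 genes were taken by symbol from the 50600 genes of each count table, and all 9 were found and tested. All 4 libraries are of 1 kind, without a treated or untreated counterpart: primary T helper 17 cells of strain C57BL/6NJ, with CD4 T cell differentiation in culture named by a linked protocol and a time of 72 hr in the file headers. The 4 biosamples carry the same donor identifier and nothing tells whether different animals gave them, so p-values measure only the spread between these samples, which may be technical. Sex was not collected and age is unknown, per the labels. No unstimulated cells were measured, so no level below is an induction.

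NR4A receptors are orphan nuclear receptors that bind DNA without a known hormone-like ligand and are switched on within minutes to hours of T cell receptor engagement. Nr4a1, which encodes NUR77, is widely used as a reporter of that signal. EGR factors are zinc finger proteins made in the same window through RAS, ERK and serum response factor, and Egr2 and Egr3 are known for restraining T cell activation by driving inhibitors such as Cblb and the diacylglycerol kinases. NAB proteins dock on EGR1, EGR2 and EGR3, but not on EGR4, and repress their targets.

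Stretches upstream of Nr4a1, Nr4a2 and Egr2 are printed because they hold letters of known activation elements. These genes were also picked for their changes in replicate 2, where Nr4a1 was higher and Nr4a2 and Egr2 were lower. Any link between the letters and these changes was not tested. The stretches are the 250 bases before the RefSeq start on GRCm38.p6 (mm10), 5′ to 3′ on the coding strand. Capitals mark the CArG box (the core of the serum response element), the EGR site (GCGNGGGCG) and the letters TGCGTCA, a form of the cyclic AMP response element that was added to the search after the windows had been read. None of the 3 stretches overlaps an exon of GENCODE vM21. The first lies at chr15:101266596-101266845 (plus strand), the second at chr2:57124004-57124253 (minus strand) and the third at chr10:67537619-67537868 (plus strand, before 1 of 5 listed Egr2 starts).
Nr4a1: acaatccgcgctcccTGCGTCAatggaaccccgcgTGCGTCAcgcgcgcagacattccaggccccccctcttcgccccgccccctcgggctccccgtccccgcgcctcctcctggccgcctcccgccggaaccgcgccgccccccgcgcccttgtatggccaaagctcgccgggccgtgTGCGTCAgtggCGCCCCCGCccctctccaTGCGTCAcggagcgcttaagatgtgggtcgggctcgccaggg
Nr4a2: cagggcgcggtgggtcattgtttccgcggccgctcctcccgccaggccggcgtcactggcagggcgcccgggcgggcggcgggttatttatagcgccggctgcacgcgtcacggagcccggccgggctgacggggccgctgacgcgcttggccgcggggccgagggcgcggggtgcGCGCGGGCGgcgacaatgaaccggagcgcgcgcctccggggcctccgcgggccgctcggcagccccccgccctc
Egr2: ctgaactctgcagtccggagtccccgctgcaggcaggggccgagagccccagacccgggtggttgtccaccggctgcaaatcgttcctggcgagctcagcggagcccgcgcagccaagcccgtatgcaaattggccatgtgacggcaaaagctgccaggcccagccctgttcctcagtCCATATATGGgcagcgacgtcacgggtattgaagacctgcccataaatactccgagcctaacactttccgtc

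The Nr4a1 stretch held 4 copies of TGCGTCA and 1 EGR site, the Nr4a2 stretch 1 EGR site and none of the other motifs, and the Egr2 stretch 1 CArG box, at bases -72 to -63 from the start. RefSeq windows of 300 bases (250 before and 50 after each start) were found for 7 of the 9 genes, all but Egr1 and Egr3, and were searched on both strands. A second CArG box stood before another Egr2 start, Nab1 had 3 EGR sites and 1 copy of TGCGTCA, and no window held the NR4A element NBRE (AAAGGTCA), the cyclic AMP response element (TGACGTCA) or an AP-1 site (TGANTCA). Of all 32851 RefSeq windows of that length, 1.63% held a CArG box, 5.55% an EGR site, 2.12% TGCGTCA, 1.51% an NBRE, 1.79% the cyclic AMP response element and 7.81% an AP-1 site. EGR sites and TGCGTCA shared no base in the Nr4a1 stretch. A match describes the letters only, and no binding was measured.

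Libraries held 33123029 to 37746767 counts, so that 3 counts, the floor for a gene at 0, stood for 0.0795 to 0.0906 CPM (counts scaled to library size). Replicate 2 stood apart: 22.5% of the 17337 genes tested differed in it from the other 3 libraries, against 0% in each of replicates 1, 3 and 4 (edgeR quasi-likelihood test, Benjamini-Hochberg adjusted). Th17 markers fell with it, with 5 of 8 lower, 0 higher and a summed level of 1477 TPM against 5500 to 6259 in the other 3 (TPM, the length-corrected abundance of a gene scaled to the same total in every library). The 0% in replicates 1, 3 and 4 does not show them alike, because each was compared with libraries that include replicate 2. All 8 Th17 markers and all 7 pan-T cell markers were called above 1 TPM in the test of the level described below. Most markers of other cells were sparse. B cell markers summed to 1.87 to 2.23 TPM over the libraries, with 0 of 6 called above 1 TPM. Cd79b, at a mean of 1.23 TPM, had no call. NK cell markers summed to 1.74 to 3.36 TPM, with 1 of 5 called above. Myeloid markers summed to 11.2 to 13 TPM, with 2 of 8 called above 1 TPM. These were Adgre1, with 8.90, 5.73, 8.77 and 8.42 TPM in replicates 1 to 4, and Cd14, with 3.47, 5.17, 2.48 and 4.32 TPM. Lyz2, S100a8 and S100a9 had 0 counts in every library. Stromal and epithelial markers summed to 2.92 to 5.47 TPM, with 1 of 6 called above 1 TPM. The sum of the 4 CD8 T cell markers was 93.4 TPM in replicate 2 and 48.3 to 56.6 TPM in the others; Cd8a had 0 to 3 counts, Cd8b1 536 to 778 with the fewest in replicate 2, and Eomes, a T-box factor also found in other T cells, had 61.8 TPM in replicate 2 and 6.53 to 8.65 TPM in the others. The part of these markers in the results below was not tested. In bulk RNA, fewer cells of a type and less RNA per cell cannot be told apart.

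Of the 9 genes, 8 lay above 1 TPM and 1, Egr4, had no call (edgeR quasi-likelihood test of the level, Benjamini-Hochberg adjusted; 70.6% of all genes tested lay above). Nr4a1 was by far the most abundant at 605 ± 85.2 TPM (mean ± SD, n = 4, as for all levels here), above 98.7% of the genes tested. It was followed by Nab2 at 186 ± 14.0, Egr1 at 128 ± 11.7, Egr3 at 94.6 ± 19.9 and Nab1 at 75.7 ± 4.49 TPM. Then came Egr2 at 68.6 ± 15.4, Nr4a2 at 66.6 ± 15.4, Nr4a3 at 42.8 ± 5.66 and Egr4 at 1.07 ± 0.369 TPM. The ranges over the libraries of Nr4a1 and Nab2, of Nab2 and Egr1, and of Nr4a3 and Egr4 did not overlap. From Egr1 down to Nr4a3 the ranges of every pair of neighbours overlapped. Within each library, Egr3 nevertheless lay above Nab1 and Nr4a2 above Nr4a3 in 4 of 4, Egr1 above Egr3 and Egr2 above Nr4a2 in 3 of 4, and Nab1 above Egr2 in 2 of 4. The lowest library of Egr1, at 112 TPM, lay above the highest of Nab1, at 81.7 TPM.

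**Figure D1:**
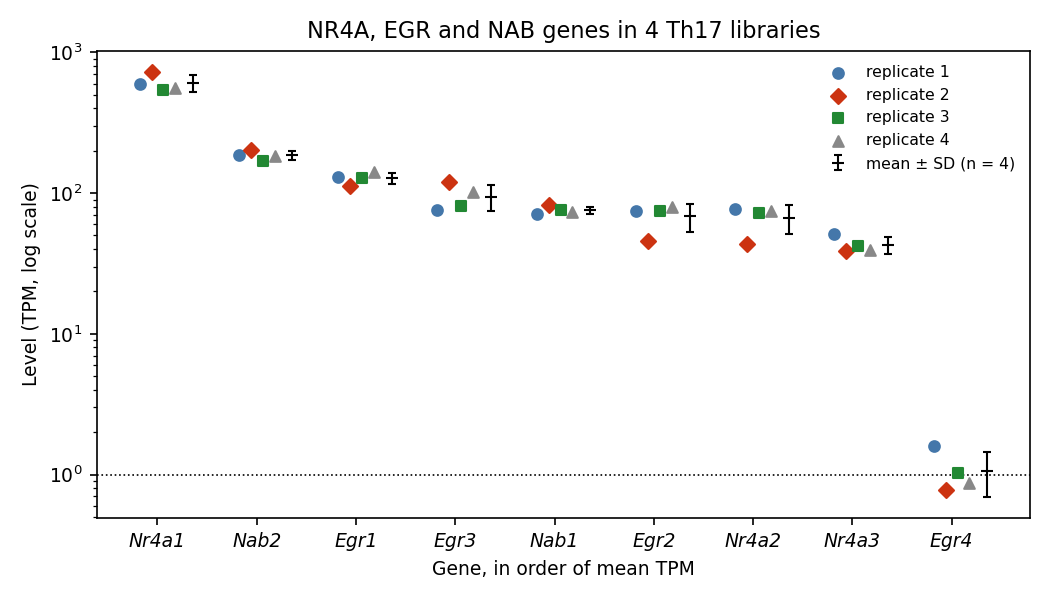
Level of each gene in TPM on a log scale, 1 point per library, with the mean and SD of the 4 libraries at the right of each gene and a dotted line at 1 TPM. Nr4a1 stands at 537 to 726 TPM, Egr4 at 0.773 to 1.60 TPM, and replicate 2 (red) is the lowest library for Nr4a2 and Egr2 and the highest for Egr3 and Nr4a1.

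The levels of Egr3 and Nr4a1 rest on the gene models used for counting. The deposited length of Egr3 was 1416 bases, while GENCODE vM21 gives it 4406 bases of exon, 3.11 times as many, and fragments in the added part were not counted. Nr4a1 had 2474 bases against 3509 in the later release. The other 7 genes had the same length in both. Comparisons of 1 gene between libraries use the same model throughout. Exons of the 9 genes overlapped no other gene on the same strand. Nab2 shared 1241 bases with Stat6, Nemp1 and Gm16229 on the opposite strand, which the reverse-stranded counting separates.

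Among the NR4A receptors, replicate 2 had more Nr4a1 and less Nr4a2. Nr4a1 (ENSMUSG00000023034.6, mm10, chromosome 15, bases 101266846 to 101274792, protein-coding) had 14674, 20576, 13954 and 15415 counts in replicates 1 to 4, or 599, 726, 537 and 557 TPM. Replicate 2 was the highest library, above the range of the other 3. Its fitted log2 change was 0.43 ± 0.05 (SE; edgeR quasi-likelihood test, adjusted p = 7.51e-06).

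Nr4a2 (ENSMUSG00000026826.13, chromosome 2, bases 57106830 to 57124003), which encodes NURR1, had 76.6, 43.7, 71.8 and 74.1 TPM in replicates 1 to 4. The other 3 libraries lay close together at 74.2 ± 2.39 TPM (SD, n = 3), and replicate 2 lay far below them. The log2 change was -0.70 ± 0.06 (SE; edgeR adjusted p = 1.30e-08). The ratio of Nr4a1 to Nr4a2 in TPM was accordingly 16.6 in replicate 2 and 7.82, 7.47 and 7.51 in replicates 1, 3 and 4.

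Nr4a3 (ENSMUSG00000028341.9, chromosome 4, bases 48045153 to 48086447), which encodes NOR1, had no call in replicate 2. It had 51.0, 38.9, 42.2 and 39.1 TPM in replicates 1 to 4, and replicate 1, not replicate 2, stood off from the rest. Its log2 change in replicate 2 was -0.12 ± 0.21 (SE; edgeR adjusted p = 0.778). In replicate 1 it was 0.33 ± 0.09 with no call (unadjusted p = 0.0123, edgeR adjusted p = 1.00). Without replicate 2 the change in replicate 1 against the other 2 libraries was 0.33 ± 0.07 and passed the test (edgeR adjusted p = 0.000239), in a comparison that called 0.409% of all genes in either direction and 0.259% as higher.

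Nr4a1 made up 82.4%, 89.8%, 82.5% and 83.1% of the summed NR4A level in replicates 1 to 4, so it was the main receptor in every library. The share of Nr4a2 was 10.5%, 5.40%, 11.0% and 11.1%, and that of Nr4a3 7.02%, 4.81%, 6.49% and 5.84%. The summed level was 726, 809, 651 and 670 TPM, highest in replicate 2.

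Among the EGR factors, replicate 2 had more Egr3 and less Egr2, with a smaller fall of Egr1. Egr1 (ENSMUSG00000038418.7, chromosome 18), the factor that most cells make first on stimulation, had 130, 112, 128 and 140 TPM. Replicate 2 was the lowest library. Its log2 change was -0.18 ± 0.05 (SE; edgeR adjusted p = 0.0153).

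Egr2 (ENSMUSG00000037868.15, chromosome 10, bases 67535475 to 67542188) had 74.1, 45.7, 74.9 and 79.6 TPM in replicates 1 to 4. As with Nr4a2, the other 3 libraries were close together, at 76.2 ± 2.96 TPM (SD, n = 3), with replicate 2 well below. The log2 change was -0.68 ± 0.06 (SE; edgeR adjusted p = 9.52e-08).

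Egr3 (ENSMUSG00000033730.3, chromosome 14, bases 70077445 to 70080157) had 1068, 1936, 1208 and 1614 counts, or 76.1, 119, 81.2 and 102 TPM. Replicate 2 was again the highest, but replicate 4 came close to it and the other libraries were spread over 86.4 ± 13.6 TPM (SD, n = 3). The log2 change was 0.53 ± 0.14 (SE; edgeR adjusted p = 0.0288), and DESeq2 gave 0.53 ± 0.25 with no call (adjusted p = 0.124). The ratio of Egr3 to Egr2 in TPM was 2.61 in replicate 2 and 1.03, 1.08 and 1.28 in replicates 1, 3 and 4.

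Egr4 (ENSMUSG00000071341.4, chromosome 6, bases 85511121 to 85513589), the member that NAB proteins do not bind, had only 34, 19, 23 and 21 counts. These stand for 1.60, 0.773, 1.02 and 0.873 TPM, on both sides of 1 TPM. Its change in replicate 2 was -0.52 ± 0.54 with no call (edgeR adjusted p = 0.567), so a difference was not detectable at this depth.

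The summed EGR level was 282, 278, 285 and 323 TPM, and replicate 2 was the lowest by a small margin. That place rests on the TPM scale, which put replicate 2 lower than the fitted changes did. Nr4a1 in replicate 2 was 1.29 times the mean of the other libraries in TPM and 1.34 times in the fit. No difference in the summed EGR level is read from this. The make-up of the EGR sum was not the same. Egr3 held 43.0% of it in replicate 2 and 27.0%, 28.4% and 31.5% in replicates 1, 3 and 4, and Egr2 held 16.4% against 26.3%, 26.2% and 24.7%. Egr1 held 40.3% against 46.1%, 45.0% and 43.5%. These shares carry the shorter Egr3 model described above.

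**Figure D2:**
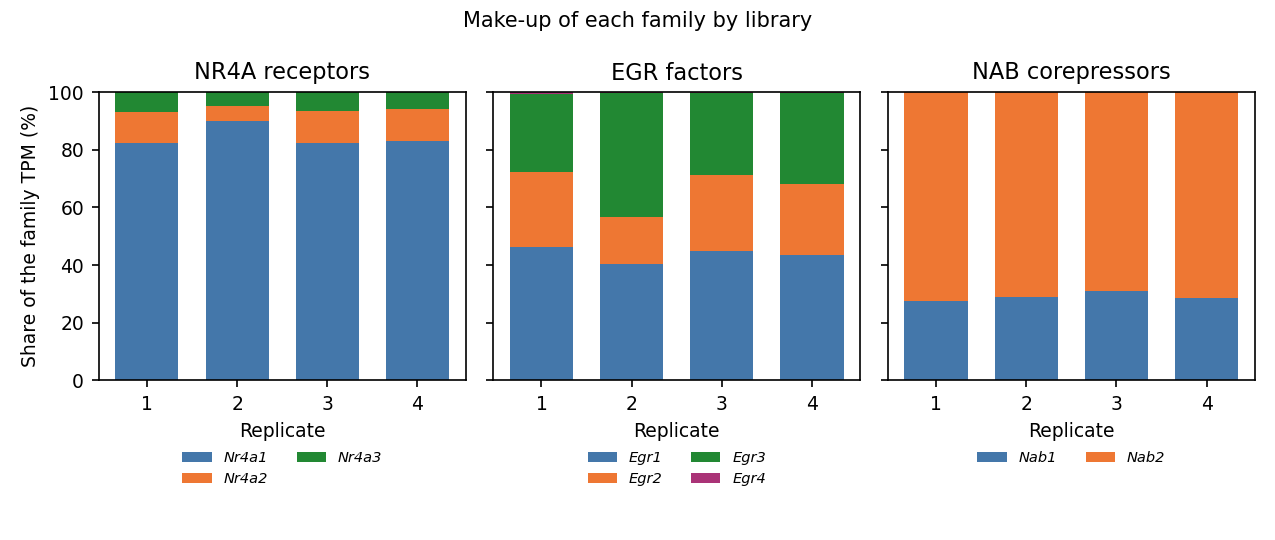
Share of the summed TPM of each family held by each gene, in percent, 1 bar per library. In replicate 2 Nr4a2 falls to 5.40% of the NR4A level and Egr3 rises to 43.0% of the EGR level, while Nab2 holds 68.9% to 72.5% of the NAB level in the 4 libraries; Egr4 (0.271% to 0.567%) is too thin to see.

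Both NAB corepressors were slightly higher in replicate 2. Nab2 (ENSMUSG00000025402.12, chromosome 10, bases 127660918 to 127668568), itself a known EGR target, had 187, 203, 168 and 184 TPM, and Nab1 (ENSMUSG00000002881.14, chromosome 1, bases 52457294 to 52500679) had 71.1, 81.7, 76.1 and 73.9 TPM. Replicate 2 was the highest library for both. The log2 changes were 0.23 ± 0.06 for Nab2 (SE; edgeR adjusted p = 0.00413) and 0.21 ± 0.05 for Nab1 (SE; edgeR adjusted p = 0.00387). Over the 4 libraries the SD was 5.93% of the mean for Nab1 and 7.54% for Nab2, the smallest of the 9 genes, against 22.5% for Egr2 and 23.1% for Nr4a2. This order rests on replicate 2. Over the other 3 libraries the SD was 3.23% of the mean for Nr4a2, 3.35% for Nab1 and 3.89% for Egr2. Next were Egr1 at 4.96%, Nr4a1 at 5.62% and Nab2 at 5.69%. The summed EGR level was 1.09, 0.978, 1.17 and 1.25 times the summed NAB level in replicates 1 to 4, and replicate 2 was the only library where NAB transcripts were the more abundant, on levels that carry the shorter Egr3 model.

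In all, 4 of the 9 genes rose in replicate 2 (Nr4a1, Egr3, Nab1 and Nab2), 3 fell (Nr4a2, Egr2 and Egr1) and 2 had no call. Over all genes tested 22.5% were called, 11.7% higher and 10.9% lower. Among the 4871 genes with a mean of at least 40 TPM, a level chosen after the data were seen and reached by 8 of the 9, 37.6% were called, 21.9% higher and 15.7% lower. DESeq2 called 3 of the 9 higher and 3 lower, against 20.8% of all genes it tested, 10.5% higher and 10.4% lower. The median log2 change of the 9 was -0.12 and that of all genes -0.01. In absolute size, 21.9% of all genes tested had a larger log2 change in replicate 2 than Nr4a2, and the median was 0.24. All genes tested include those with as few as 10 summed counts, and sizes were not compared among genes of like level. All 9 lay outside the range of the other libraries in TPM, 4 above and 5 below. So did 28.2% (above) and 43.2% (below) of all genes tested. This split rests on the TPM scale, and the 5 genes below include Egr4 and Nr4a3, which had no call. For Nr4a3 the values were 38.9 TPM in replicate 2 and 39.1 TPM in replicate 4. Its fitted log2 change in replicate 2 without replicate 1 was -0.000393. No member was called in replicates 1, 3 or 4 by edgeR, which called 0% of all genes there, or by DESeq2, which called 0.0115%, 0.0865% and 0.0173%. At an unadjusted p under 0.05 edgeR had 1, 0 and 0 of the 9 in replicates 1, 3 and 4. Without the share of all genes at that cut, which was not computed, nothing is read from these counts. The edgeR and DESeq2 tests set a single library against 3 and rest on the spread among those 3. They therefore describe libraries and not a condition. For replicates 1, 3 and 4 that spread includes replicate 2, which widens it. The standard error of Nr4a2 in replicate 1 was 0.30, and 0.06 without replicate 2. The lack of calls in replicates 1, 3 and 4 therefore does not show that these libraries are alike.

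**Figure D3:**
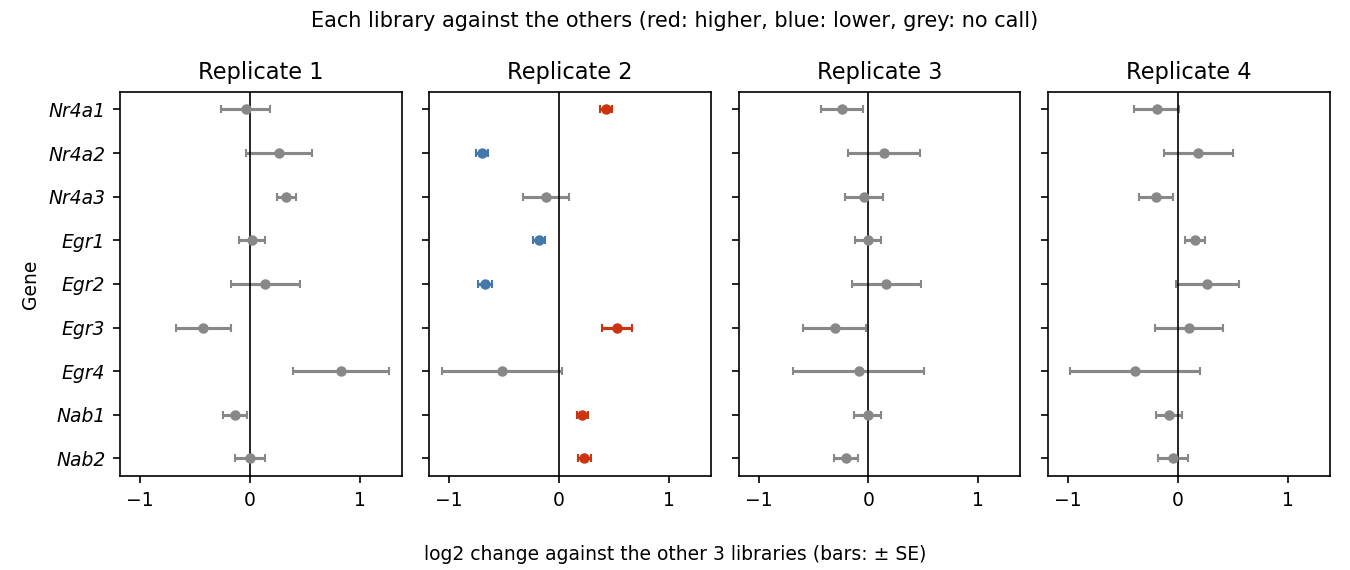
Log2 change of each gene in 1 library against the other 3, with its standard error, 1 panel per library (edgeR quasi-likelihood fit). In replicate 2, 4 genes are higher (red, 0.21 to 0.53) and 3 lower (blue, -0.70 to -0.18), and no gene is called in the other 3 panels.

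Whether the 9 genes vary more than others of their level was asked of the 4 libraries together. None passed (0 of 9; edgeR quasi-dispersion over its trend, Benjamini-Hochberg adjusted; 0.0346% of all genes passed). At an unadjusted p under 0.05 there were 4: Nr4a2, Egr2, Egr3 and Nr4a1. The share of all genes at that cut was not computed, so nothing is read from this count.

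For each called gene, up to 3 protein-coding genes with the most similar profile are named, sought among 9512 with a mean of at least 5 TPM, as the root-mean-square difference of centred log2(TPM + 0.1) over the 4 libraries. Nearest to Egr2 was Pdcd1, the gene of the inhibitory receptor PD-1, with 412, 251, 419 and 440 TPM and a difference of 0.00974, followed by Ckap4 and Inpp4b. Nearest to Nr4a2 were Arhgef11 (0.00772) and Tbl2, and to Nr4a1 Frmd8 (0.0130), Galnt11 and Rap2b. Egr1 lay closest to Ptprs (0.00784), Cxcr3 and Cdc5l. Egr3 had the loosest matches, Il4i1 (0.0348), Rusc1 and Eva1b. Nab1 was closest to Tmem35b (0.00477), Ric1 and Ppm1k, and Nab2 to Fam173a (0.00573), Ado and Josd2. Each profile rests on 4 libraries, of which 1 stands apart.

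The RAS, ERK and serum response factor genes that carry the signal to EGR promoters were all expressed, 15 of 15 above 1 TPM, among them Map2k1 (the kinase MEK1) at 211 ± 27.1 TPM and Nras at 139 to 144 TPM over the libraries. In replicate 2, 4 of the 15 were higher and 4 lower, with a median change of 0.09. Rasgrp1, the exchange factor that links the T cell receptor to RAS, rose by 0.59 ± 0.07 on the log2 scale, and Mapk3, Map2k2 and Srf rose by 0.23, 0.19 and 0.18 on the log2 scale. Among the lower were Elk3 at -0.40 ± 0.05, Map2k1 at -0.33 ± 0.05 and Elk4 at -0.24 (edgeR adjusted p = 6.43e-06, 4.86e-05 and 0.0239). Nras had 0.09 with no call. For this list and those below, the shares over all genes tested were 22.5% called in replicate 2 and 70.6% above 1 TPM. Among genes with a mean of at least 40 TPM, 37.6% were called. The list counts were not tested against these shares.

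Of the 8 ERK feedback inhibitors, all above 1 TPM, 3 were lower and 2 higher in replicate 2, with a median of -0.09. The phosphatase genes split. Dusp6 was lower at -0.75 ± 0.09 and Dusp4 at -0.58 ± 0.07, with 421, 249, 368 and 373 TPM for Dusp4 in replicates 1 to 4, while Dusp5 was higher at 0.36 ± 0.08 (edgeR adjusted p = 3.52e-06, 0.000157 and 0.00873). Spry2 was higher at 1.06 ± 0.19, from a low level of 6.78 ± 2.75 TPM, and Spred1 lower at -0.40.

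Of 14 genes of the calcineurin, NFAT and MEF2 branch, which acts on Nr4a1, 13 lay above 1 TPM, led by the calcineurin subunit gene Ppp3r1 at 230 ± 9.83, Hdac7 at 177 ± 17.7 and Nfatc1 at 78.1 ± 3.08 TPM. Of all 14, 2 were higher, 2 lower and 10 without a call in replicate 2, and the median was 0.04. Rcan1, a calcineurin inhibitor gene induced by calcineurin itself, fell by 0.77 ± 0.09 on the log2 scale, with 49.4, 28.8, 50.8 and 53.3 TPM. Mef2d was higher at 0.38 ± 0.05, Cabin1 at 0.17 and Hdac7 lower at -0.18 ± 0.06 (edgeR adjusted p = 1.97e-06 for Rcan1, 2.70e-06 for Mef2d and 0.0433 for Hdac7). Nfatc1 and Ppp3r1 had -0.05 and -0.06 with no call.

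Immediate early genes such as Egr1 need no new protein to be switched on, which was not tested for each gene listed here. Other genes listed under that name went both ways. All 20 lay above 1 TPM, led by Junb at 1299 ± 42.3, Jund at 966 ± 59.8 and Dusp2 at 481 ± 27.1 TPM, and in replicate 2, 5 were higher and 5 lower, with a median of 0.03. Higher were Dusp1 at 0.44 ± 0.08, Zfp36 at 0.38, Btg2 at 0.21, Dusp2 at 0.21 ± 0.05 and Junb at 0.13 ± 0.04. Lower were Maff at -1.24 ± 0.16, Ier3 at -0.43 ± 0.12, Jun at -0.39, Fosl2 at -0.34 and Nfil3 at -0.28. Jund had 0.01 with no call.

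Genes linked to EGR factors in T cells also went both ways, with 6 of 15 higher and 5 lower in replicate 2 and a median of -0.09; 14 of 15 lay above 1 TPM. The inhibitors of receptor signalling Cblb, a ubiquitin ligase gene, and Dgka, a diacylglycerol kinase gene, were higher at 0.59 and 0.79, as were Id3 at 0.69 ± 0.05, Socs1 at 0.55, Socs3 at 0.40 ± 0.05 and the cell cycle inhibitor gene Cdkn1a at 0.28 ± 0.05. Dgkz had 0.03 with no call. Lower were Crtam at -2.30 ± 0.13, with 21.1, 4.48, 21.6 and 26.1 TPM, Tnfrsf9 (4-1BB) at -0.82 ± 0.06, Fasl at -0.82 ± 0.27, Lag3 at -0.65 and Cdkn1b at -0.41. In edgeR the adjusted p-values were 2.93e-10 for Crtam, 9.52e-10 for Tnfrsf9 and 0.0320 for Fasl, and DESeq2 did not call Fasl (adjusted p = 0.127).

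Of 14 genes linked to NR4A receptors in T cells, 12 above 1 TPM, 7 were lower and 1 higher in replicate 2, where 10.9% of all genes were lower. Their median was -0.42, against -0.01 over all genes. The list was chosen with earlier results of these data known, so no conclusion is drawn from this median. Lower were Ctla4 at -1.65 ± 0.05, Ikzf2 at -1.49 ± 0.14, Tox2 at -1.42 ± 0.28, Pdcd1 at -0.69 ± 0.05, Lag3 at -0.65, Tox at -0.48 and Runx1 at -0.36 (edgeR adjusted p = 2.16e-15 for Ctla4, 8.64e-08 for Ikzf2, 0.000687 for Tox2 and 2.69e-09 for Pdcd1). The exception was Bcl2l11, which encodes the death-promoting protein BIM, higher at 1.01. Batf, at 954 ± 35.3 TPM, had -0.03 with no call. Lag3 stands in both this list and the one before.

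The retinoid X receptors, dimer partners of NR4A1 and NR4A2, were led by Rxrb at 63.1 to 68.5 TPM over the libraries and Rxra at 56.0 ± 13.2 TPM. Rxra had 63.5, 36.2, 61.3 and 63.0 TPM and was lower in replicate 2 at -0.73 ± 0.05 (edgeR adjusted p = 1.32e-09). Rxrb was higher at 0.16 ± 0.06 (edgeR adjusted p = 0.0455), a call that was lost in DESeq2 and in each of the other 4 alternatives run for the list. Rxrg had 0 counts in every library.

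**Figure D4:**
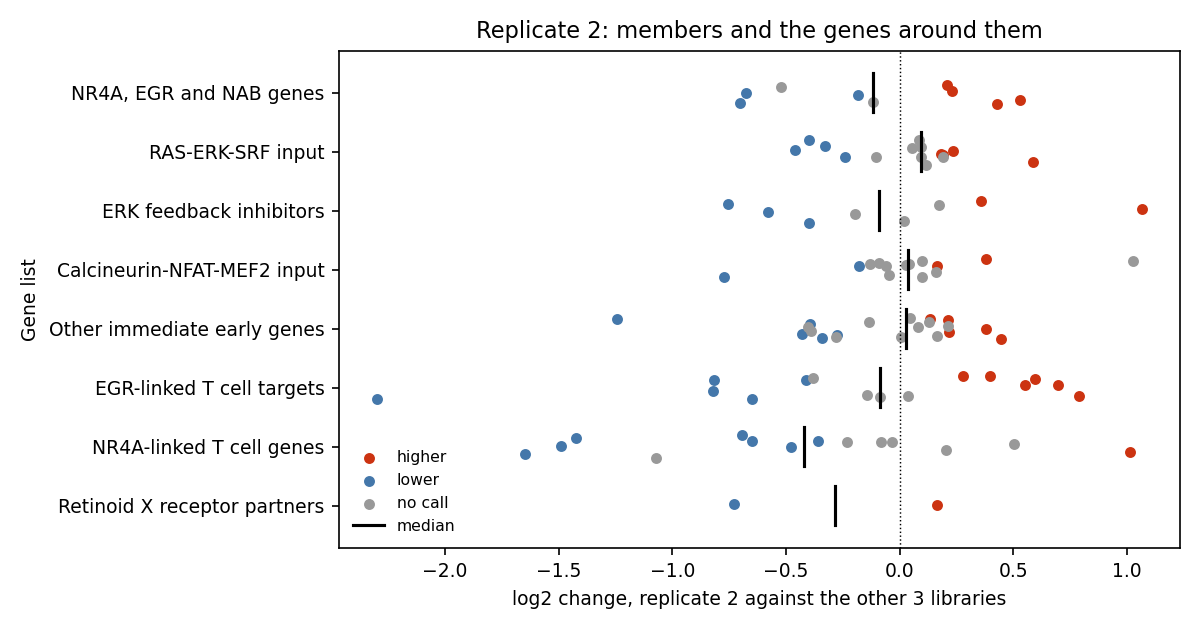
Log2 change of each tested gene in replicate 2 against the other 3 libraries, 1 row per gene list, with the list median as a bar (red higher, blue lower, grey no call; vertical scatter is arbitrary). The 9 members and the lists of ERK, calcineurin, immediate early and EGR-linked genes lie on both sides of 0, and the NR4A-linked genes have a median of -0.42. The lists were chosen with earlier results of these data known.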

How the data were processed

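The authors deposited raw fragment counts per gene, 1 table per library, counted with featureCounts 1.4.6-p4 on reverse-stranded pairs with both ends mapped against GENCODE M13, per the file headers; the build is mm10 per the labels. The deposited tables also give each gene's summed exon length. The aligner version is not given in the sources used here. Symbols came from GENCODE vM21 (50376 of 50600 identifiers matched). TPM was computed here from counts and length. Genes with at least 10 summed counts were tested with edgeR 4.0.16 (R 4.3.3), quasi-likelihood with TMM, and again with DESeq2 1.42.0, at an adjusted p of 0.05; all p-values were adjusted over all genes tested. Levels were tested against 1 TPM in an intercept-only fit, with F formed from the deviances. Other filters, scalings and left-out libraries were tried as alternatives. The tests were run on simulated data first. A standard error was derived from the fold change and its F statistic. The 9 genes and the lists were chosen with earlier results of these data known.

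All 9 genes are named, and of each list the 3 with the highest mean TPM and the 3 with the largest change in replicate 2 among those called with a mean of at least 1 TPM. Mapk3, Map2k2, Srf, Elk4, Spred1, Cabin1, Zfp36, Btg2, Jun, Fosl2, Nfil3, Cblb, Dgka, Dgkz, Socs1, Lag3, Cdkn1b, Tox, Runx1, Bcl2l11, Cd8b1 and Eomes were added after their values were seen. Some genes that the rule names are not reported here. The assay is named total RNA in the labels, while the linked library protocol is for poly(A)+ RNA. The floors cover counting error only.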

Additional observations from a re-analysis of the deposited data

Results flagged for a closer look

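In the groups of 4 libraries, a value was singled out where its gap to the nearest library, as a share of the whole range, exceeded Dixon's 95% critical value, which chance does in about 1 of 20 genes. Over all 17337 genes tested, 10.5% had such a value, 7.42% in replicate 2. Of the genes named by the rule and reported here, 41 were checked and 11 had such a value, 10 in replicate 2. Of the 41, 19 were named for the size of their change in replicate 2, so their count is fixed in part by that choice and nothing is read from it. Among the 9 NR4A, EGR and NAB genes these were Nr4a2 at 43.7 TPM and Egr2 at 45.7 TPM. Lower in replicate 2 were also Rcan1 at 28.8, Tnfrsf9 at 70.1, Pdcd1 at 251, Ctla4 at 422 and Rxra at 36.2 TPM. Higher were Spry2 at 10.8, Mef2d at 63.5 and Id3 at 627 TPM. Jund stood off in replicate 1, at 1055 TPM.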

How the results depend on the processing

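The 7 calls in replicate 2 kept their direction in all 8 alternatives (no filter, at least 100 summed counts, DESeq2, upper-quartile, total counts only, and without replicate 1, 3 or 4), and 6 kept their call in all 8; Egr3 lost it in DESeq2. Log2 changes ranged from 0.39 to 0.47 for Nr4a1, -0.73 to -0.68 for Nr4a2, -0.70 to -0.65 for Egr2 and 0.45 to 0.66 for Egr3. The count of members differing in replicate 1, 0 in the reported fit, was 0 to 1 when a library was left out, the 1 being Nr4a3 without replicate 2. Members with excess spread, 0 as reported, were 2 with no filter (Nr4a2 and Egr2) and 0 to 1 when a library was left out. Called retinoid X receptors went from 2 to 1 in DESeq2, with total counts only, and whichever of replicates 1, 3 and 4 was left out. Genes differing in replicates 1, 3 and 4, 0 as reported, were 2, 15 and 3 in DESeq2 and 68, 108 and 9 without replicate 2, and in replicate 3 they were 17 with no filter. Genes with excess spread went from 6 to 467 with no filter and 79 without replicate 2, and to 0 with at least 100 summed counts and without replicate 1, 3 or 4. The cause was not tested. No paired analysis was possible because the libraries form 1 group. Counts of 19 to 34 limit Egr4.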
